A study of Mus musculus with 37 samples.

Results

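The metabotropic glutamate receptors and the Homer scaffold proteins were described at the RNA level in the hippocampus of 37 mice. The members were *Grm2*, *Grm3*, *Grm4*, *Grm5*, *Grm7*, *Grm8*, *Homer1*, *Homer2* and *Homer3*, and every probe that carried one of these 9 symbols in the platform annotation was taken. Of the 9 genes, 7 had such a probe, out of 15967 genes with a symbol on the array, and together they had 10 of its 24620 probes. *Grm2* and *Grm5* were not analysed here. All mice were females of 3 to 4 months from CSS15F2, an F2 population made from C57BL/6J and a chromosome substitution strain in which chromosome 15 comes from A/J, so that all mice shared the C57BL/6J background and varied on chromosome 15 alone. None of the 9 genes lies on that chromosome. RNA from punches of the left hippocampus was hybridised to Illumina MouseRef-8 BeadChips with 1 array per mouse, and the 37 mice formed 1 group. A punch holds many cell types, and fewer cells of a type and less RNA per cell cannot be told apart in it. The comparisons below therefore run between measures over mice and not between conditions.

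Metabotropic glutamate receptors are G protein-coupled receptors that answer glutamate more slowly than ion channels do. Group I receptors (mGluR1 and mGluR5) activate phospholipase C through Gq and G11 proteins and sit mainly on the postsynaptic side. Group II receptors (mGluR2 and mGluR3) and group III receptors (mGluR4, mGluR7 and mGluR8 among them) lower cyclic AMP through Gi and Go proteins, and many of them dampen transmitter release. Homer proteins carry an EVH1 domain that binds the tail of group I receptors, inositol trisphosphate receptors and Shank proteins, and long Homer forms join each other through a coiled coil. A short *Homer1* transcript is an immediate early gene, which means that neuronal activity raises it within a short time, and its protein lacks the coiled coil.

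The stretches of 250 bases before the starts of *Homer1* and *Homer2* are shown because *Homer1* is known as a gene that answers activity. *Homer2* is set beside it as another member, and no link between these letters and the levels over mice was tested. Both stretches are read 5′ to 3′ on the strand of the gene from RefSeq annotation of build GRCm38.p6. Capitals mark TGACG or its reverse complement CGTCA, the half-site that CREB, an activity-driven transcription factor, is known to bind. The *Homer1* stretch is chr13:93303507-93303756 on the plus strand and the *Homer2* stretch is chr7:81706926-81707175 on the minus strand.
Homer1: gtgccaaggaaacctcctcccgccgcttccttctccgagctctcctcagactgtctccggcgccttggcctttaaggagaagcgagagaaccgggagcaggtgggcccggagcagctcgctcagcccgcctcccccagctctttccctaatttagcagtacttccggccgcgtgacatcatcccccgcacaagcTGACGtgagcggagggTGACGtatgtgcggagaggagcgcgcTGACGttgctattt
Homer2: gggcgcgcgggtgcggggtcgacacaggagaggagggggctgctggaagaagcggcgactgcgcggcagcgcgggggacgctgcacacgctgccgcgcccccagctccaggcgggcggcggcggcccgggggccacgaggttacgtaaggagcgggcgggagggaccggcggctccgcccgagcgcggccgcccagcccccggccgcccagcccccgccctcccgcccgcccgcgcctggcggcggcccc
The *Homer1* stretch held 3 half-sites and the *Homer2* stretch held 0. The stretch before another annotated start of each gene held 0. Stretches before annotated starts of *Grm3*, *Grm7* and *Homer3* held 0, and of those of *Grm8* 1 held 1 and the others 0. Over all 32851 promoter stretches of this length, on both strands, 17.8% held at least 1 half-site and 0.688% held at least 3. A match is a description of the letters and not of binding.

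The arrays differed in how many probes they detected. A probe was called detected on an array when its detection *p* against the negative control beads was under 0.01, and the number of such probes ran from 5281 on the poorest array to 10724 on the richest, with a median of 8704. The 37 arrays lay on 13 BeadChips whose numbers fall into 2 runs, called here the set of 26 arrays and the set of 11 arrays, with medians of 8763 and 8609 detected probes. Further tests used the 8541 probes detected on at least 19 arrays. Values are log2 intensities after background correction and quantile normalization, and the levels of different probes are not set against each other because probes bind with different strength.

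Of the 10 member probes, 5 passed this detection rule, and they belonged to *Grm7*, *Homer1*, *Homer2* and *Homer3*. Among group II receptors, *Grm3* (ILMN_1238513) was detected on 0 arrays. Its background-corrected signal ran from -11.3 through a median of -2 to 11.1, and it was below 0 on 25 arrays. Among group III receptors, *Grm4* (ILMN_3162152), best known from the cerebellum, was detected on 4 arrays, and all 4 belonged to the set of 11. Its signal ran from -1.3 through 18.4 to 34. *Grm8* (ILMN_2711523), a presynaptic receptor, was detected on 11 arrays, 7 of the set of 26 and 4 of the set of 11. These 11 arrays had from 9000 to 10724 detected probes, and no array with fewer than 9000 detected *Grm8*. Some arrays above 9000 did not detect it either, such as that of mouse 59 with 9598. The *Grm8* signal ran from -16.4 through 12.3 to 93.8. *Grm3*, *Grm4* and *Grm8* were thus not detected on most arrays and did not enter the fits described below. *Grm4* and *Grm8* entered only the alternative that took every probe detected on at least 1 array.

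*Grm7* (ILMN_2684189), which encodes the receptor of the presynaptic active zone, was detected on 23 arrays. Its level was 5.89 ± 0.58 log2 units (SD, n = 37), and it ran from 5.12 in mouse 57 through a median of 5.80 to 7.24 in mouse 20. The mouse with the highest normalized level had a raw signal of 31.9 on an array with 5631 detected probes, and the arrays of the 3 highest mice had 5631, 6877 and 5281 detected probes. The highest raw signal of *Grm7* over all mice was 163.9. Its order over mice therefore changed between the signal and the normalized value, and directions given for *Grm7* below hold for normalized values.

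*Homer1* had 4 probes, and they did not read alike. ILMN_2718149 was detected on all 37 arrays and ILMN_1226785 on 33, and the annotation ties both to the same transcript. ILMN_2593585 and ILMN_2595990, each tied to another transcript of the gene, were detected on 0 arrays, with signals from -3.6 to 20.1 and from -15.3 to 1.5. The annotation used here does not say which probe reads the short, activity-induced transcript. In ILMN_2718149 the level was 8.56 ± 0.38 (SD, n = 37) and ran from 7.78 in mouse 102 through 8.48 to 9.46 in mouse 155. In ILMN_1226785 it was 7.10 ± 0.82 and ran from 4.84 in mouse 86 through 7.15 to 8.42 in mouse 155. The value of mouse 86 and of 3 others came from arrays on which this probe was not detected. The same 3 mice, 155, 108 and 126, were the highest in both probes, and the probes correlated over mice (*r* = 0.78, permutation *p* = 1e-05, the smallest the permutations can give; Spearman's ρ = 0.83, *p* = 1e-05; limma adjusted *p* = 1.92e-07). This relation was *r* = 0.77 with values centred within chips, 0.78 in the set of 26, 0.82 in the set of 11 and 0.84 when the 2 mice farthest from the median of the predictor were left out. The SD of ILMN_1226785 was larger than that of 92.6% of the 8541 detected probes, and that of ILMN_2718149 was larger than 35.6% of them. The SDs lay closer together under other processing, at 0.385 and 0.318 in the authors' normalized values and at 1.17 and 0.896 without quantile normalization.

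*Homer2* (ILMN_1219559), a long scaffold form, was detected on all 37 arrays at 9.46 ± 0.74 (SD, n = 37). It ran from 7.93 in mouse 151 through 9.58 to 10.77 in mouse 127, a 7.15-fold range, and its SD was above that of 88.9% of detected probes. *Homer3* (ILMN_1245733), the remaining long scaffold form, was detected on all 37 arrays at 8.58 ± 0.60. It ran from 7.03 in mouse 145 through 8.64 to 9.43 in mouse 57, and its SD was above that of 76.9% of detected probes. The median SD of all detected probes was 0.44.

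**Figure D1:**
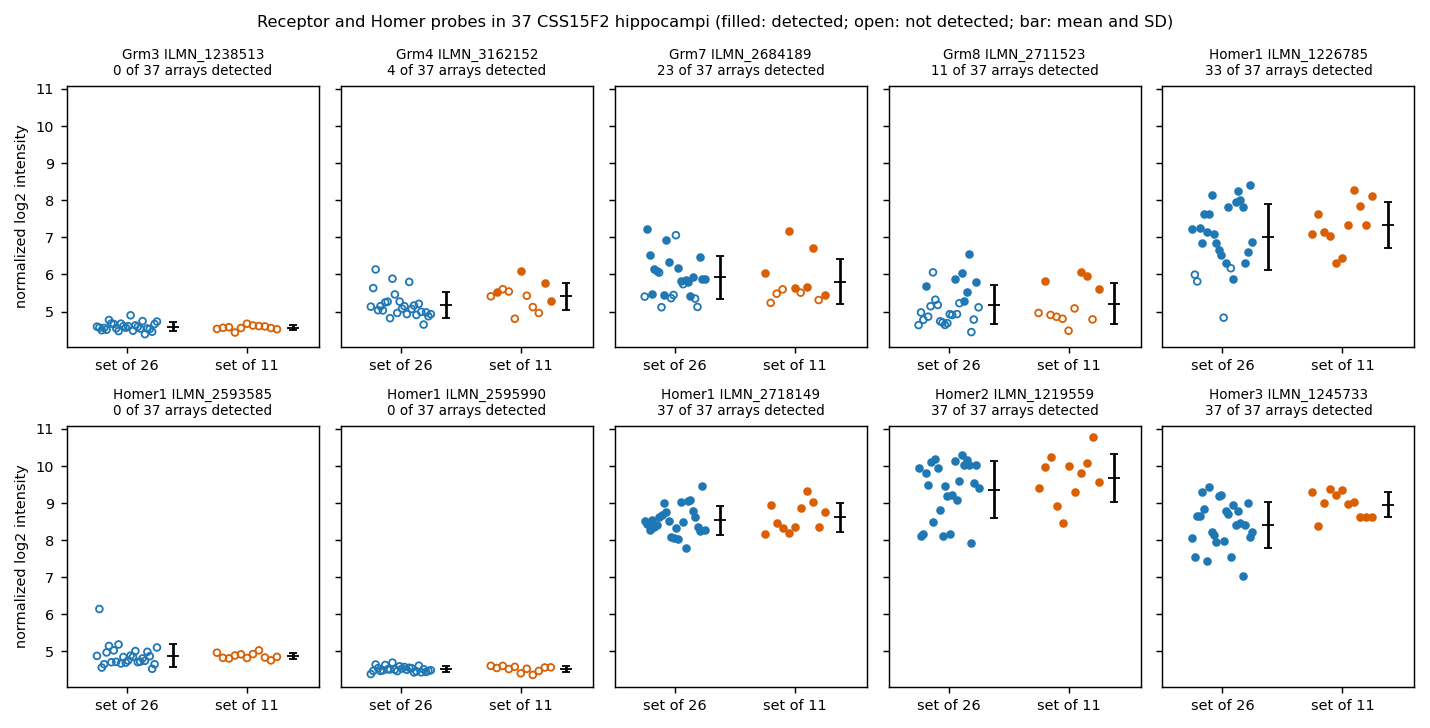
Normalized log2 intensity of the 10 receptor and Homer probes in 37 mice, split by the 2 sets of BeadChips; filled points are arrays on which the probe was detected, open points are arrays on which it was not, and bars give the mean and SD. Homer2, Homer3 and Homer1 ILMN_2718149 were detected on 37 of 37 arrays, and Grm3 and 2 of the Homer1 probes on 0.

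The labels give a BeadChip number for each array, and the 2 sets formed from the runs of these numbers were compared first. The 13 single BeadChips, with 1 to 6 arrays each, entered later fits as a block. In limma's fit over the 8541 probes, 0 differed between the sets (0% of probes; 796 at an unadjusted *p* under 0.05), and 0 of the 5 member probes did. *Homer3* had the largest difference among members. Its median was 8.44 in the set of 26 (7.03 to 9.43) and 8.996 in the set of 11 (8.39 to 9.38), so the sets overlapped. The difference was 0.54 ± 0.19 log2 units (SE), with an unadjusted *p* of 0.00831 and a limma adjusted *p* of 0.516. The other 4 differences ran from -0.12 for *Grm7* to 0.32 for *Homer2* and had limma adjusted *p* of 0.608 or more.

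Across arrays, *Homer1* and *Homer2* were higher where more probes were detected, and *Grm7* was lower there. In the limma fit on the number of detected probes 67% of all 8541 probes passed an adjusted *p* of 0.05, and 4 of the 5 member probes did, so the members' share was near that of the array. *Homer1* ILMN_1226785 rose by 0.46 ± 0.06 log2 units (SE) per 1000 detected probes (adjusted *p* = 3.01e-08 from limma), and *Homer2* rose by 0.38 ± 0.06 (9.64e-07 from limma). *Homer1* ILMN_2718149 rose by 0.13 ± 0.04 (limma adjusted *p* = 0.00501). The slope of *Homer3* was 0.14 ± 0.07 and did not pass (limma adjusted *p* = 0.0681).

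The correlations behind these slopes were *r* = 0.77 for *Homer1* ILMN_1226785 (permutation *p* = 1e-05; ρ = 0.77, *p* = 1e-05) and *r* = 0.71 for *Homer2* (1e-05; ρ = 0.67, *p* = 3e-05, permutation tests). Both remained past the threshold within chips, at *r* = 0.78 and 0.74. In the set of 11 alone they were 0.87 and 0.43, the latter with a permutation *p* of 0.18. For *Homer1* ILMN_2718149 *r* was 0.47 (permutation *p* = 0.00273; ρ = 0.53, *p* = 0.00069), with 0.50 within chips, 0.38 in the set of 26 and 0.73 in the set of 11. For *Homer3* *r* was 0.31 (permutation *p* = 0.0581; ρ = 0.19, *p* = 0.258), and it was 0.43 in the set of 26 and -0.59 in the set of 11. With the 2 most distant mice left out these values were 0.69, 0.63, 0.49 and 0.17.

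*Grm7* fell by 0.22 ± 0.06 log2 units per 1000 detected probes (limma adjusted *p* = 0.000765; *r* = -0.54, permutation *p* = 0.00062; ρ = -0.41, *p* = 0.0131), but its slope was 0.11 in the opposite direction when the arrays were not quantile normalized. The correlation was -0.45 within chips, -0.62 in the set of 26, -0.27 in the set of 11 and -0.35 with the 2 most distant mice left out. Without the 9 arrays with the fewest detected probes it was -0.07, with a limma adjusted *p* of 0.785, so the fall of *Grm7* rested on those arrays. Without quantile normalization 95.4% of all probes had a slope above 0 and their median slope was 0.40, against 55.1% and 0.03 after it.

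**Figure D2:**
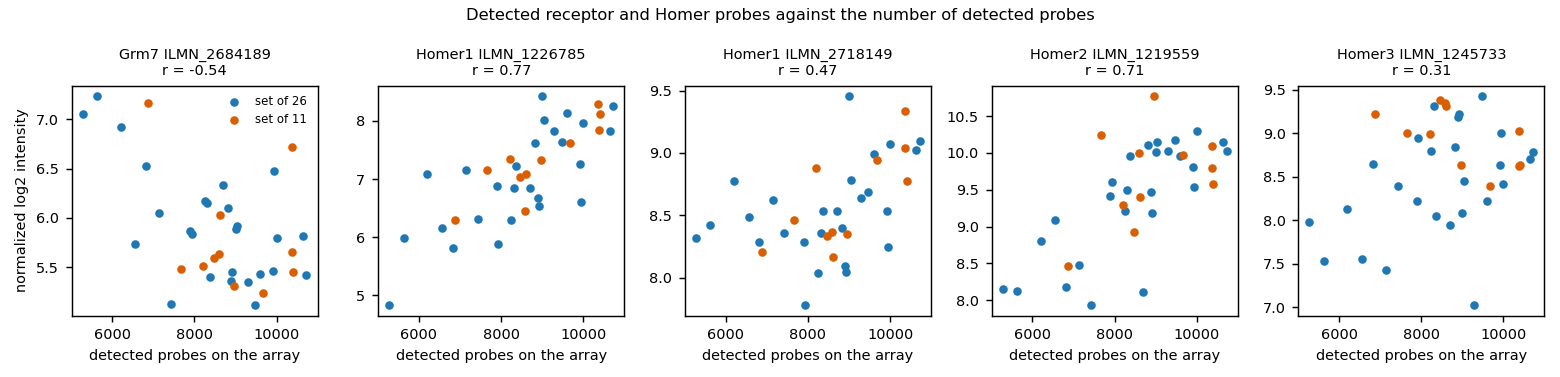
Normalized log2 intensity of the 5 detected receptor and Homer probes against the number of detected probes on the array for 37 mice; blue points are the set of 26 arrays and orange points the set of 11. Homer1 ILMN_1226785 and Homer2 rise from left to right, with r of 0.77 and 0.71.

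The members' signalling partners were taken from a list of 24 genes: G protein subunits, phospholipase C, adenylyl cyclases and the scaffolds that bind receptors or Homer. Of these, 13 genes had detected probes, 19 in all. Against the number of detected probes, 12 of the 19 probes rose and 0 fell, with a median slope of 0.20 against 0.03 for all probes tested. Of all 8541 probes 3212 rose and 2514 fell, and the share of partner probes that passed in either direction was near the 67% of the array. The G protein subunit gene *Gna11*, whose product links group I receptors to phospholipase C, had the steepest slopes, at 0.98, 0.71 and 0.51 log2 units per 1000 detected probes in its 3 probes (limma adjusted *p* of 3e-07 or less). *Plcb1*, the phospholipase downstream of it, rose by 0.35, and *Gnaq*, the partner subunit gene, rose by 0.33 (limma adjusted *p* = 1.77e-05 and 7.83e-11). *Gnao1*, which encodes the Go subunit used by group II and III receptors, rose by 0.30 and 0.20 in its 2 probes. The postsynaptic density scaffold gene *Dlg4* rose by 0.27 and *Ncdn*, whose product binds mGluR5, by 0.26 and 0.24 in its 2 probes.

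Whether the members vary with each other was asked next, over 9 pairs of probes of different genes, with *Homer1* entered through both of its detected probes. Each pair was tested with each member in turn as the predictor of all other probes, which gives 18 tests, and 8 of them passed, in 4 pairs. The share of all probes that passed was 45.3% with *Grm7* as predictor, 63.6% with *Homer1* ILMN_1226785, 40.7% with *Homer1* ILMN_2718149, 66.8% with *Homer2* and 18.2% with *Homer3*. The members' 8 of 18 therefore lay within the range of the whole array.

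*Homer1* and *Homer2* varied together. For ILMN_1226785 *r* was 0.69 (permutation *p* = 1e-05; ρ = 0.69, *p* = 1e-05; limma adjusted *p* = 4.75e-06), with 0.70 within chips, 0.75 in the set of 26, 0.37 in the set of 11 (permutation *p* = 0.26) and 0.61 with the 2 most distant mice left out. After both were adjusted for the number of detected probes *r* was 0.31, with a permutation *p* of 0.063. For ILMN_2718149 and *Homer2* *r* was 0.38 (permutation *p* = 0.0217; ρ = 0.46, *p* = 0.00427; limma adjusted *p* = 0.0428). That call was lost with BeadChip as a block (limma adjusted *p* = 0.0957), with chip set as a block (0.0548, limma), with the number of detected probes as a covariate (0.799, limma) and without the 9 arrays with the fewest detected probes (0.0562, limma).

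*Grm7* ran against *Homer2* (*r* = -0.53, permutation *p* = 0.00088; ρ = -0.42, *p* = 0.0105; limma adjusted *p* = 0.00298) and against *Homer1* ILMN_1226785 (*r* = -0.46, permutation *p* = 0.00408; ρ = -0.38, *p* = 0.0195; limma adjusted *p* = 0.0101), and both signs turned without quantile normalization, to 0.23 and 0.31. For *Homer2* *r* was -0.49 within chips, -0.53 in the set of 26 and -0.51 in the set of 11, and for *Homer1* it was -0.42, -0.49 and -0.35. With the 2 most distant mice left out the values were -0.41 and -0.38. Without the 9 arrays with the fewest detected probes they were -0.30 and -0.20, with permutation *p* of 0.13 and 0.3, and after adjustment for the number of detected probes they were -0.25 and -0.08, with permutation *p* of 0.14 and 0.63.

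*Homer3* passed with none of the other members. Its *r* was 0.24 with *Homer2*, 0.01 with *Homer1* ILMN_1226785, -0.24 with *Homer1* ILMN_2718149 and -0.17 with *Grm7* (limma adjusted *p* from 0.177 to 0.978 over both directions). With the number of detected probes as a covariate, *Homer3* was lower where *Homer1* ILMN_2718149 was higher, by 0.80 ± 0.25 log2 units (SE) per unit (limma adjusted *p* = 0.0137), in a fit in which 30.3% of all probes passed. With *Homer3* as the predictor the same pair did not pass under this covariate (limma adjusted *p* = 0.051).

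The members were then set against marker scores for activity, cell types and neighbouring regions, each the mean of standardized levels of the detected genes of a list. The dentate granule cell list had too few detected genes (2 of 6, *Prox1* and *C1ql2*), which left 10 scores and 50 pairs with the 5 member probes. In limma's fits 6 pairs passed. The share of all probes that passed was 40.4% for CA1 pyramidal cells, 24% for CA3 pyramidal cells, 50.5% for microglia, 1.21% for interneurons, 0.27% for oligodendrocytes, 0.223% for the choroid plexus and 0.0234% for the thalamus. It was 0% for immediate early genes, astrocytes and endothelial cells, where 1304, 919 and 2857 probes had an unadjusted *p* under 0.05. The number of member probes at that unadjusted level was 0, 0 and 2 in these fits, the 2 being *Homer1* ILMN_1226785 and *Homer2*.

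*Homer3* was higher in mice with a higher CA3 score, a score built from *Bok*, *Grik4*, *Socs2*, *Spock1*, *Iyd* and *Nectin3*. CA3 is the hippocampal field that receives the mossy fibres of the dentate gyrus. Mouse 145, lowest in *Homer3* at 7.03, had a CA3 score of -1.72, and mouse 57, highest at 9.43, had a score of 0.81. *Homer3* rose by 0.59 ± 0.08 log2 units (SE) per unit of score (limma adjusted *p* = 2.57e-05; *r* = 0.775, permutation *p* = 1e-05; ρ = 0.72, *p* = 1e-05). It was 0.78 with values centred within chips, 0.80 in the set of 26, 0.32 in the set of 11 (permutation *p* = 0.33) and 0.69 with the 2 most distant mice left out. The adjusted *p* stayed under 0.05 under every processing alternative run, at 0.00266 with BeadChip as a block, 8.49e-05 with the number of detected probes as a covariate and 0.00522 without the 9 arrays with the fewest detected probes. With the covariate 0.41% of all probes passed.

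Each of the 6 CA3 genes passed on its own with *Homer3* as predictor, in a fit in which 18.2% of all probes passed. These genes make up the score, so their calls are not separate support for it. *Bok*, an apoptosis-related gene of the Bcl-2 family, had *r* = 0.80 (limma adjusted *p* = 1.21e-05), and *Socs2*, a suppressor of cytokine signalling, had *r* = 0.71 (0.00027 from limma). *Grik4*, a kainate receptor subunit gene, had *r* = 0.61, the adhesion gene *Nectin3* 0.56, *Iyd* 0.53 and *Spock1* 0.44 (limma adjusted *p* from 0.00526 to 0.0334). With each gene left out of the score in turn, a check added after the values were seen, *r* ran from 0.72 without *Bok* to 0.81 without *Spock1*. The other 4 member probes had *r* from -0.13 to 0.33 with the CA3 score and did not pass (limma adjusted *p* from 0.0994 to 0.708). The difference between members in this relation was not tested.

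*Homer2* was higher in mice with a higher CA1 score, built from *Wfs1*, *Fibcd1*, *Pou3f1* and *Mpped1*. CA1 is the output field that receives the axons of CA3. Mouse 127, highest in *Homer2* at 10.77, had a CA1 score of 1.57, and the 3 lowest mice had scores of -0.73, -1.51 and -1.68. *Homer2* rose by 0.59 ± 0.10 log2 units (SE) per unit of score (limma adjusted *p* = 0.000212; *r* = 0.69, permutation *p* = 1e-05; ρ = 0.60, *p* = 0.00014). The correlation was 0.51 within chips, 0.65 in the set of 26, 0.74 in the set of 11 and 0.66 with the 2 most distant mice left out. In the fit across all probes the call was lost with BeadChip as a block (limma adjusted *p* = 0.0956) and without the 9 arrays with the fewest detected probes (0.185, limma), and it was kept with the number of detected probes as a covariate (0.000418, limma), in a fit in which 24.6% of all probes passed. Among the genes, *Mpped1* and *Wfs1*, the latter an endoplasmic reticulum protein gene, had *r* of 0.72 and 0.71 with *Homer2*, *Fibcd1* had 0.50 and *Pou3f1* 0.43 (limma adjusted *p* of 0.00912 or less, in a fit in which 66.8% of all probes passed). Within chips these values were 0.61, 0.64, 0.17 and 0.26. *Homer3* had *r* = 0.09 with this score (limma adjusted *p* = 0.674).

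*Grm7* was lower at a higher CA1 score by 0.32 ± 0.10 log2 units per unit (limma adjusted *p* = 0.01; *r* = -0.48, permutation *p* = 0.00277; ρ = -0.40, *p* = 0.0149), but *r* was 0.14 without quantile normalization. It was -0.29 within chips (permutation *p* = 0.078), -0.47 in the set of 26, -0.48 in the set of 11 and -0.43 with the 2 most distant mice left out. Without the 9 arrays with the fewest detected probes it was -0.18 (permutation *p* = 0.36). The call was also lost with BeadChip as a block (limma adjusted *p* = 0.357) and with the number of detected probes as a covariate (0.0626, limma).

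**Figure D3:**
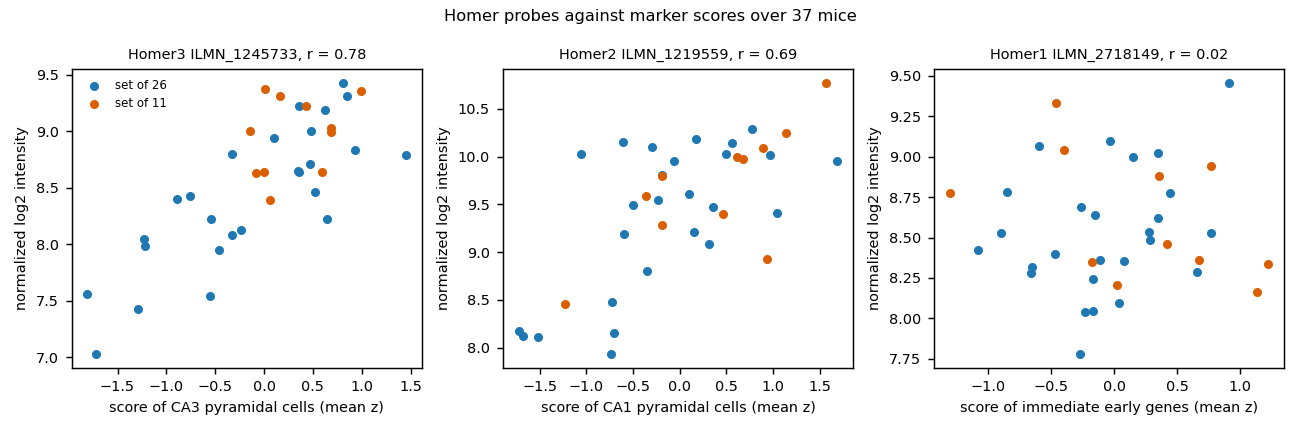
Normalized log2 intensity of Homer3 against the CA3 score, of Homer2 against the CA1 score and of Homer1 ILMN_2718149 against the immediate early gene score (mean of standardized levels) in 37 mice; blue points are the set of 26 arrays and orange points the set of 11. The first 2 plots slope upwards, with r of 0.775 and 0.69, and the last has r of 0.02.

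Neither detected *Homer1* probe passed with the immediate early gene score, in a limma fit in which 0% of all probes passed. The members thus did not differ from the array here. Whether either probe reads the short, activity-induced transcript is not given by the annotation. The score held *Fos*, *Junb*, *Egr1*, *Egr4*, *Arc* and *Dusp1*, and 6 of the 12 listed genes, *Npas4* and *Fosb* among them, were not detected. For ILMN_2718149 *r* was 0.02 (permutation *p* = 0.923; ρ = 0.03, *p* = 0.86; limma adjusted *p* = 0.973) and for ILMN_1226785 it was 0.10 (permutation *p* = 0.557; ρ = 0.07, *p* = 0.679; limma adjusted *p* = 0.805), whereas without quantile normalization *r* was 0.84 and 0.76, on values in which nearly all probes rise with the number of detected probes. Within chips the values were -0.01 and 0.06, in the set of 26 they were 0.28 and 0.33, in the set of 11 -0.48 and -0.58, and with the 2 most distant mice left out 0.10 and 0.21. Gene by gene, *Junb* ran against ILMN_2718149 (*r* = -0.48, limma adjusted *p* = 0.00871), and *Fos* had *r* = 0.37 (limma adjusted *p* = 0.0515). The adjusted values come from the fit with ILMN_2718149 as predictor, in which 40.7% of all probes passed. *Arc*, *Egr1*, *Egr4* and *Dusp1* had *r* from -0.06 to 0.18 (limma adjusted *p* from 0.373 to 0.817).

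The microglia score, of 7 genes, went with lower *Homer1* and *Homer2*, and these signs depended on the normalization. *Homer2* fell by 0.88 ± 0.18 log2 units per unit of score (limma adjusted *p* = 0.000102; *r* = -0.63, permutation *p* = 7e-05; ρ = -0.63, *p* = 5e-05), but *r* was 0.46 without quantile normalization. *Homer1* ILMN_2718149 had *r* = -0.45 (permutation *p* = 0.00487; ρ = -0.43, *p* = 0.00813; limma adjusted *p* = 0.0125), and 0.61 without quantile normalization. The values for *Homer2* and *Homer1* were -0.52 and -0.38 within chips, -0.63 and -0.41 in the set of 26, -0.59 and -0.61 in the set of 11, and -0.56 and -0.53 with the 2 most distant mice left out. *Homer1* ILMN_1226785 also passed (*r* = -0.41, permutation *p* = 0.0111; ρ = -0.54, *p* = 0.00062; limma adjusted *p* = 0.0187). The genes of the score did not move as one with *Homer2*. *Tyrobp* had *r* = -0.87 and *C1qa* -0.79, whereas *Cx3cr1*, the fractalkine receptor of the same cells, had *r* = 0.85. The microglia score itself fell with the number of detected probes (*r* = -0.55) over mice. With that number as a covariate the call was kept for *Homer2* (limma adjusted *p* = 0.0431) and lost for both *Homer1* probes (0.943 for ILMN_1226785 and 0.256 for ILMN_2718149, limma). With BeadChip as a block it was likewise kept for *Homer2* (0.0223, limma) and lost for the *Homer1* probes (0.339 and 0.128, limma).

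**Figure D4:**
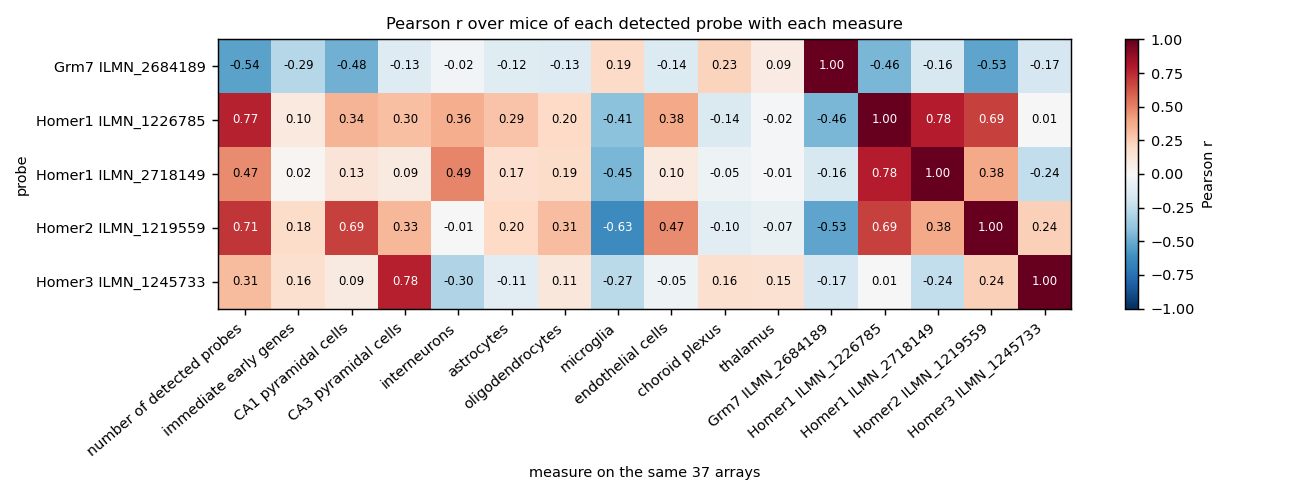
Pearson r over 37 mice of each of the 5 detected receptor and Homer probes (rows) with the number of detected probes, the 10 marker scores and each other (columns); red is positive and blue is negative. Homer3 has r of 0.775 with the CA3 score and between -0.30 and 0.31 with the other measures.

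The probes most like each member over the 37 mice differed between the Homer genes. For *Homer1* (ILMN_2718149) they were *Mbnl1*, a splicing regulator gene (*r* = 0.85), *Slitrk4*, a synaptic adhesion gene (0.84), and *Tbk1*, a kinase gene (0.83). For *Homer2* they were the sorting receptor gene *Sorl1* (0.93), the ribosome export gene *Lsg1* (0.93) and the atypical protein kinase C gene *Prkcz* (0.92). For *Homer3* they were *Tmem25* (0.82), the mitochondrial glutamate carrier gene *Slc25a22* (0.81) and *Bok* (0.80). These values held within chips at 0.86 to 0.87 for *Homer1*, 0.89 to 0.90 for *Homer2* and 0.72 to 0.81 for *Homer3*. In the set of 11 the values for *Homer3* were lower, at 0.29 for *Tmem25*, 0.67 for *Slc25a22* and 0.51 for *Bok*. For *Grm7* the nearest were *Faxc* (0.72), *Hoxc6* (0.71) and *Parp16* (0.71). In the same order their values were 0.59, 0.61 and 0.63 within chips and 0.57, 0.48 and 0.59 in the set of 11. Without quantile normalization they were 0.47, 0.41 and 0.56, and in the authors' normalized values 0.84, 0.83 and 0.82. The partners were picked for their high *r* and share arrays and array quality with the members, so these values are a description.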

How the data were processed

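The authors extracted background-corrected intensity values and a detection score for each probe with BeadStudio, and deposited them beside log2 values made with lumi by variance stabilizing transformation and robust spline normalization. Deposited intensities were corrected with limma 3.58.1 in R 4.3.3 (nec, with detection *p* taken as the complement of the score, offset 16), quantile normalized and logged. Probe identities were found by matching ranks over arrays between both tables, and 24613 of 24620 probes matched 1 to 1. The platform annotation gave 20984 of them 1 symbol. Fits used lmFit and eBayes with Benjamini-Hochberg adjustment over all tested probes and called an adjusted *p* under 0.05. The fitting code was also run on simulated probes with independent noise and known slopes. That run cannot speak for the calls in these data, where probes vary together. Correlations used 100000 two-sided permutations, over 9 member pairs, 5 pairs with the number of detected probes and 50 with scores. Mixture models (mclust 6.1.1) split no measure into groups. All members were described, with the 3 most alike probes of each detected member gene, up to 6 partner genes with the steepest called slopes and the 8 called pairs of largest absolute *r*. The labels give 1 array per mouse, so each test took the mice as its units. The permutations shuffled arrays without regard to BeadChip, so their *p*-values do not allow for likeness of arrays on the same BeadChip. The number of arrays limits the precision. Members and lists were chosen with earlier results of these data known.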

Additional observations from a re-analysis of the deposited data

How the results depend on the processing

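The count of 4 of 5 member probes associated with the number of detected probes became 6 of 7 with probes detected on at least 1 array. Under the other alternatives it ran from 3 to 5 of 5. The count of 0 between chip sets stayed at 0. The count of associated member and score pairs, 6, became 41 without quantile normalization, 11 (of 70) with probes detected on at least 1 array, 3 with BeadChip as a block and 3 with the number of detected probes as a covariate. The count of 8 associated ordered member pairs became 14 (of 40) with probes detected on at least 1 array, 5 with BeadChip as a block, 1 with the number of detected probes as a covariate and 2 without the 9 arrays with the fewest detected probes. The share of all probes that passed changed as well. For the CA1, CA3 and microglia scores it was 40.4%, 24% and 50.5% in the main fits. With the number of detected probes as a covariate it was 24.6%, 0.41% and 22.1%. Such shares are not given here for the other alternatives. Changes in these counts are therefore not read as results about the members. Without quantile normalization, *r* turned from -0.63 to 0.46 for the microglia score and *Homer2*, from -0.45 to 0.61 for that score and *Homer1*, from -0.53 to 0.23 for *Grm7* and *Homer2*, from -0.46 to 0.31 for *Grm7* and *Homer1*, from -0.48 to 0.14 for the CA1 score and *Grm7*, and from -0.54 to 0.33 for the number of detected probes and *Grm7*. The cause was not tested. With the authors' normalized values none of these 6 signs turned. Calls in the set of 11 arrays are limited by its size. No paired analysis was possible because all mice formed 1 group. *Grm4* and *Grm8* entered only the fits with probes detected on at least 1 array, and *Grm3* entered none. Of the 5 member probes tested in the main fits, *Grm7* was detected on the fewest arrays (23 of 37).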
